A study of Arabis alpina with 23 samples.

Results

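Members of the shoot stem cell circuit of the perennial Arabis alpina were taken by their identifiers from the 34220 genes of the deposited expression table. The 4 genes are WUS (Aa_G197460), CLV3 (Aa_G155810) and 2 genes that the table describes as the receptor kinase CLAVATA1 (Aa_G590900 and Aa_G201460). All 4 had enough counts to be tested. Another gene, Aa_G702580, carries the same CLAVATA1 description, and the description alone does not settle which of the 3, if any, is the counterpart of Arabidopsis CLV1. WUS is described as wuschel-like and partial.

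In Arabidopsis the shoot meristem keeps its stem cells through a feedback loop. WUS is a homeodomain transcription factor made in a small organizing centre below the stem cells, and it moves upward and maintains them. The stem cells secrete the CLV3 peptide, which is perceived by CLV1 and related leucine-rich repeat receptors and which restricts WUS expression. A new axillary meristem has to set up the same loop in a leaf axil, and flower meristems use it as well.

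All plants were of the Pajares accession, and the labels name no transgene or mutant. Axillary buds (AB) at a stage with 1 leaf primordium were compared by RNA sequencing with the shoot apical meristems (SAM) of the same plants, also taken with 1 leaf primordium, at 4 stages. Stage 1 plants were 4 weeks old and stage 2 plants 8 weeks old, grown in long days at 24 °C by day and 18 °C by night. Stage 3 and stage 4 plants were harvested after 4 and 7 weeks at 4 °C, with 16 h of light. Each replicate pooled 120 to 150 buds or meristems, with 3 libraries in 7 of the groups and 2 in AB stage 1. Total counts per library were 13973874 to 15655452 in AB and 12247645 to 26218502 in SAM. The meristem markers STM and KNAT1 were abundant in both tissues and summed to between 225 and 350 TPM (the authors' values, scaled for gene length and library size) across the groups. In pooled tissue, fewer cells of a type and less RNA per cell cannot be told apart.

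The gene models lie on the minus strand of the version 5 assembly, and each was placed at 1 locus with 0 overlapping models. WUS spans positions 28212754 to 28214487 of chromosome 3, with 3 exons and a coding length of 912 bp. CLV3 spans positions 35829 to 36400 of scaffold_203, with 3 exons and a short coding length of 297 bp. Aa_G590900 spans positions 46283043 to 46286235 of chromosome 8, with 2 exons and 3093 bp of coding length. Aa_G201460 spans positions 46662491 to 46665538 of chromosome 7, with 2 exons and 2895 bp of coding length.

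Compared per length, the receptor-like genes stood well above the ligand and the transcription factor. The mean over the 23 libraries was 21.9 TPM for Aa_G590900, 19.4 TPM for Aa_G201460, 5.53 TPM for WUS and 2.66 TPM for CLV3. WUS ranged from 1.03 to 10.2 TPM among libraries and CLV3 from 0.56 to 5.91 TPM. The ranges of Aa_G590900 (9.52 to 34.1 TPM) and Aa_G201460 (10.3 to 27.9 TPM) were narrower in proportion. CLV3 rested on 3 to 31 counts per library and WUS on 17 to 158, whereas Aa_G590900 had 446 to 1507 and Aa_G201460 had 453 to 1627. The precision was therefore lowest for CLV3.

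**Figure D1:**
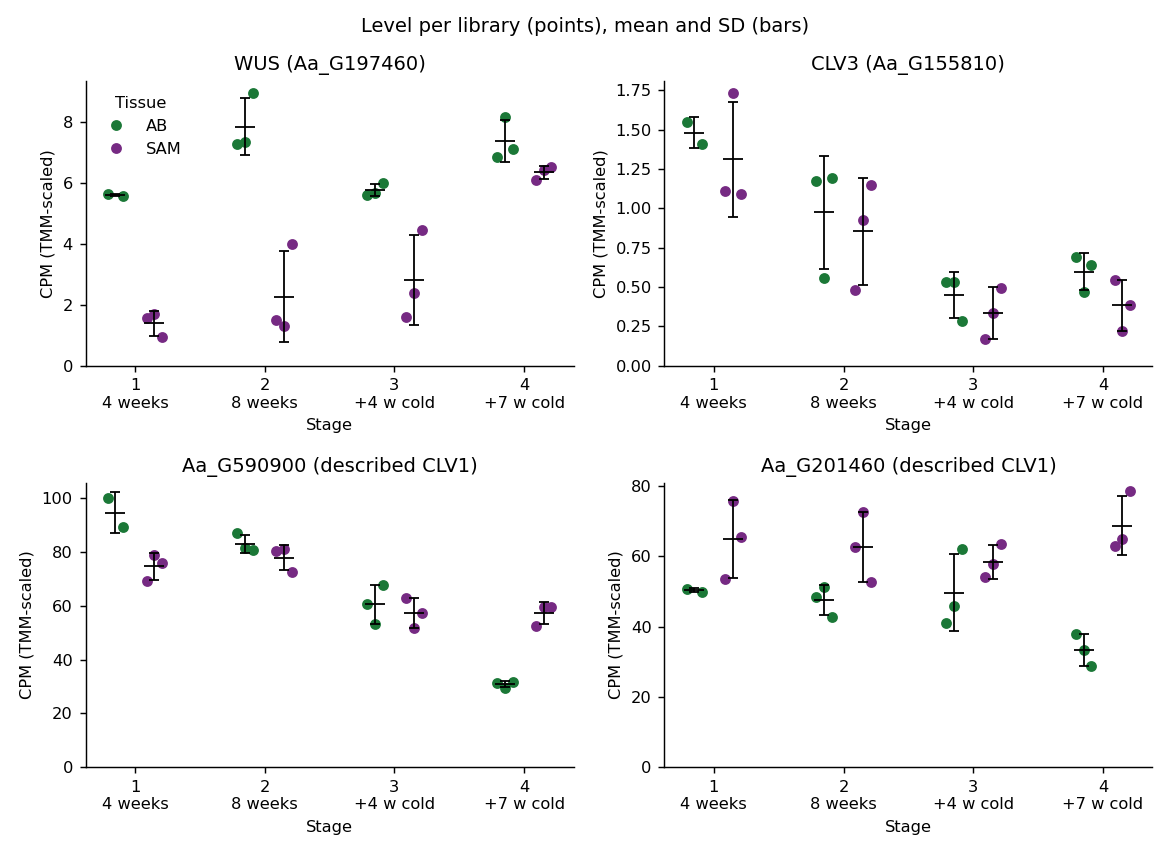
Level of each gene in each library, in CPM (counts divided by the TMM-scaled library size, vertical axis, linear from 0), by stage (horizontal axis) for AB (green) and SAM (purple), with the group mean and SD in black. WUS sits between 5.58 and 8.94 CPM in all AB libraries and reaches that band in the SAM only at stage 4, while both CLAVATA1-described genes are lowest in AB stage 4.

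WUS, the factor of the organizing centre, was higher in young buds than in the apex of the same plants at stages 1 to 3, and the gap was smallest at stage 4, where the SAM level was highest. In AB it measured 5.63 and 5.58 CPM at stage 1, and 7.27, 7.34 and 8.94 CPM at stage 2. It measured 5.62, 5.67 and 6.0 CPM in AB at stage 3, and 6.84, 8.17 and 7.13 CPM at stage 4. Bud levels lay within 5.58 to 8.94 CPM throughout.

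In the SAM, WUS measured 1.55, 1.68 and 0.923 CPM at stage 1 and 1.49, 1.31 and 3.99 CPM at stage 2. It measured 1.61, 2.39 and 4.47 CPM at stage 3, and 6.10, 6.43 and 6.51 CPM at stage 4. A single library stood above the other two at each of stages 2 and 3, replicate 3 in both cases, and the 3 libraries of stage 4 lay close together. Those replicate 3 libraries also had the highest summed leaf mesophyll markers of their groups (14000 TPM at stage 2 against 11100 and 11400, and 14100 TPM at stage 3 against 9850 and 12100). They had the lowest summed epidermis markers too (1440 TPM against 1740 and 2090, and 1360 TPM against 1800 and 1800). The sum of STM and KNAT1 was highest in replicate 3 at SAM stage 3 (350 TPM against 245 and 285), but not at SAM stage 2 (317 TPM against 330 and 291). Both replicate 3 libraries had the lowest total counts of their groups (16318298 at stage 2 and 12247645 at stage 3). The part of any of these in the WUS values was not tested.

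At every stage the AB libraries lay above all SAM libraries for WUS, although by little at stage 4. The log2 difference AB minus SAM was 2.01 ± 0.37 at stage 1 (SE of the fit, n = 2 and 3 libraries, adjusted p = 0.000279) and 1.81 ± 0.33 at stage 2 (n = 3 and 3, adjusted p = 0.000178). It was 1.06 ± 0.33 at stage 3 (adjusted p = 0.0123) and 0.22 ± 0.30 at stage 4 (adjusted p = 0.785). These p-values come from edgeR's quasi-likelihood test with Benjamini-Hochberg adjustment over the 21414 genes tested, and 0.05 was the threshold. The ratio of mean CPM, AB over SAM, was 4.05, 3.47, 2.04 and 1.16 at stages 1 to 4. The stage 3 call was lost without SAM stage 3 replicate 1, with a WUS difference of 0.76 and an adjusted p of 0.0816.

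Markers of other cell types differed between the same groups as WUS. At stage 1 the summed levels in AB and SAM were 31.9 to 32.9 and 16.7 to 20.9 TPM for vascular markers, 2470 to 2780 and 1690 to 2190 TPM for epidermis markers, and 10100 to 12000 and 14400 to 17800 TPM for leaf mesophyll markers. Boundary and epidermis sums were higher in AB without overlap at stages 1 to 3, and vascular sums were at stage 2 too. Boundary sums at stage 2 were 118 to 129 and 50.5 to 61.3 TPM. Most of the boundary sum in AB at stages 1 to 3 was LOB (83.1 to 92.5 TPM at stage 2, against 7.28 to 7.96 in SAM). Of the 4 boundary genes, 1 was called higher in AB at each of these stages, and 1, 2 and 0 were called lower. Of all genes, 32.8%, 37.4% and 44.2% were called there. At stage 4 the boundary sums (50.9 to 55.8 and 39.5 to 53.4 TPM) and the vascular sums (15.8 to 18.1 and 16.0 to 19.8 TPM) overlapped, whereas epidermis sums were higher in AB (2580 to 2840 and 2080 to 2320 TPM). The part of these cells in the WUS difference was not tested.

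Whether the WUS gap differed between stages was tested directly. The interaction of tissue and stage, with 3 coefficients, passed the threshold for WUS (adjusted p = 0.0152). The single step from stage 3 to stage 4 did not: the AB change minus the SAM change was -0.84 ± 0.44 on the log2 scale (adjusted p = 0.159), and it passed only without SAM stage 3 replicate 3 (-1.35, adjusted p = 0.0231).

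Within the SAM, WUS rose from stage 3 to stage 4 by 1.20 ± 0.32 on the log2 scale (adjusted p = 0.0219) and lay 1.5 ± 0.32 higher at stage 4 than at stage 2 (adjusted p = 0.00118). The authors' deposited table gives a log2 fold change of 1.23 for WUS between SAM stages 4 and 3, with an FDR p-value of 0.00365. The call on the last step was lost when any of 4 libraries was left out, namely SAM stage 3 replicate 1 (0.90, adjusted p = 0.129), SAM stage 3 replicate 2 (1.12, 0.0933), SAM stage 4 replicate 2 (1.20, 0.0559) or SAM stage 4 replicate 3 (1.18, 0.0628). The WUS difference between SAM stages 3 and 2 was 0.30 ± 0.35 (adjusted p = 0.569), which became 0.97 (adjusted p = 0.0302) without SAM stage 2 replicate 3. No WUS step within AB passed the threshold, with differences of 0.48 ± 0.35, -0.45 ± 0.31 and 0.36 ± 0.30 for the 3 successive steps (adjusted p = 0.592, 0.317 and 0.357).

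Flower meristem markers moved with the WUS rise in the SAM. The summed level of 5 flower meristem genes was 4.41 to 5.57 TPM in SAM stages 1 and 2, 11.8 to 19.3 TPM at stage 3 and 120 to 254 TPM at stage 4. LFY, a flower meristem identity factor, reached 90.0 to 137 TPM in SAM stage 4 and 24.0 to 33.0 TPM in AB stage 4. AP1, which acts with LFY, was at 0 in every group before stage 4, and at stage 4 it reached 26.7 to 68.8 TPM in the SAM and 1.38 to 2.92 TPM in AB. The part of flower meristem cells in the WUS level was not tested. In AB, where the same summed level went from 1.59 to 1.98 TPM at stage 3 to 29.4 to 35.7 TPM at stage 4, WUS differed by 0.36 ± 0.30.

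Ordered by mean CPM, WUS ran from AB stage 2 (7.85 ± 0.94, SD) and AB stage 4 (7.38 ± 0.70) through SAM stage 4 (6.35 ± 0.22), AB stage 3 (5.76 ± 0.21) and AB stage 1 (5.61 ± 0.04) to SAM stage 3 (2.83 ± 1.48), SAM stage 2 (2.26 ± 1.5) and SAM stage 1 (1.38 ± 0.40). Libraries overlapped between AB stages 2 and 4, between AB stages 3 and 1, and between neighbours among SAM stages 3, 2 and 1. In TPM, libraries of SAM stage 4 and AB stage 3 overlapped as well. AB stage 1 and SAM stage 3 did not overlap on either scale.

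CLV3, the peptide of the stem cells, showed no called difference between buds and apex, and its mean level was highest at stage 1 in both tissues. In AB it measured 1.55 and 1.41 CPM at stage 1, and 1.17, 0.559 and 1.19 CPM at stage 2. It measured 0.529, 0.534 and 0.282 CPM in AB at stage 3, and 0.69, 0.465 and 0.637 CPM at stage 4. The AB stage 1 libraries stood above all later AB libraries.

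In the SAM, CLV3 measured 1.11, 1.73 and 1.09 CPM at stage 1 and 0.48, 0.927 and 1.15 CPM at stage 2. It measured 0.167, 0.333 and 0.496 CPM at stage 3, and 0.541, 0.22 and 0.386 CPM at stage 4. AB and SAM libraries overlapped at all 4 stages. The CLV3 counts behind the SAM stage 3 group were 14 in all, and their exact Poisson 95% interval, which covers counting error only, was 0.17 to 0.521 CPM.

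The log2 difference AB minus SAM for CLV3 was 0.18 ± 0.44, 0.20 ± 0.42, 0.49 ± 0.53 and 0.60 ± 0.47 at stages 1 to 4 (adjusted p = 0.796, 0.752, 0.476 and 0.58). These differences rest on 14 to 71 CLV3 counts per group and were of the order of their standard errors, so neither a difference nor its absence was shown. The interaction of tissue and stage did not pass for CLV3 (adjusted p = 0.913).

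Across stages, CLV3 fell in the SAM between stages 2 and 3 by 1.39 ± 0.49 on the log2 scale (adjusted p = 0.0415). This call sat at the threshold. The adjusted p was 0.05003 with DESeq2, and it was 0.0933 and 0.135 when replicates 2 and 3 of SAM stage 2 were left out in turn, and 0.179 and 0.0845 for replicates 1 and 2 of SAM stage 3. The matching CLV3 difference in AB was -1.10 ± 0.46 (adjusted p = 0.0949), and the AB and SAM changes over this step differed by 0.30 ± 0.67 (adjusted p = 0.842). The steps from stage 1 to stage 2 (-0.61 ± 0.46 in AB and -0.62 ± 0.41 in SAM) and from stage 3 to stage 4 (0.40 ± 0.48 and 0.29 ± 0.52) did not pass. The CLV3 order of group means followed stage more than tissue, from AB stage 1 (1.48 ± 0.10 CPM, SD) and SAM stage 1 (1.31 ± 0.37 CPM) down to SAM stage 4 (0.382 ± 0.16 CPM) and SAM stage 3 (0.332 ± 0.165 CPM). Libraries of every pair of neighbours in that order overlapped.

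**Figure D2:**
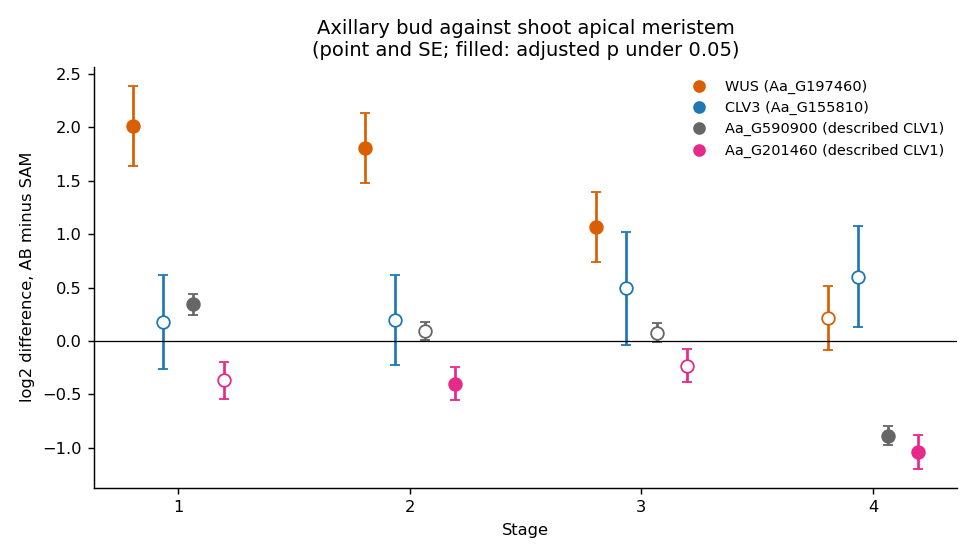
Log2 difference AB minus SAM (vertical axis) at each stage (horizontal axis) for the 4 genes, with the SE of the fit as bars and filled points where the adjusted p was under 0.05. WUS goes from 2.01 at stage 1 to 0.22 at stage 4, whereas Aa_G590900 and Aa_G201460 reach -0.89 and -1.04 at stage 4.

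Both CLAVATA1-described genes had their largest difference between tissues at stage 4, where their level was lower in buds. Aa_G590900 measured 99.9 and 89.3 CPM in AB stage 1, and 87.0, 81.4 and 80.8 CPM in AB stage 2. It measured 60.8, 53.1 and 67.7 CPM in AB stage 3, and 31.2, 29.6 and 31.8 CPM in AB stage 4. Each cold-treated AB group lay wholly below the groups before it.

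In the SAM, Aa_G590900 measured 69.1, 79.0 and 75.9 CPM at stage 1 and 80.3, 81.0 and 72.5 CPM at stage 2. It measured 62.9, 51.8 and 57.3 CPM at stage 3, and 52.5, 59.4 and 59.7 CPM at stage 4. The SAM libraries of stages 3 and 4 overlapped with each other and lay below those of stages 1 and 2.

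Aa_G590900 was higher in AB than in SAM at stage 1 by 0.34 ± 0.10 on the log2 scale (adjusted p = 0.00893) and lower at stage 4, with a difference of -0.89 ± 0.09 (adjusted p = 7.83e-06). At stages 2 and 3 the differences were 0.09 ± 0.09 and 0.08 ± 0.09 (adjusted p = 0.434 and 0.506), and libraries of the tissues overlapped. The stage 1 call for Aa_G590900 was lost without AB stage 1 replicate 1, which leaves a single AB library (0.27, adjusted p = 0.102).

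From stage 2 to stage 3, Aa_G590900 fell in both tissues by similar amounts, 0.46 ± 0.09 in AB and 0.44 ± 0.09 in SAM (log2 differences -0.46 and -0.44, adjusted p = 0.000957 and 0.00101). From stage 3 to stage 4 it changed by -0.97 ± 0.09 in AB (adjusted p = 6.4e-08), against -0.01 ± 0.09 in the SAM (adjusted p = 0.983). The AB change minus the SAM change over that last step was -0.97 ± 0.13 (adjusted p = 1.7e-05). The interaction over all stages passed too (adjusted p = 3.16e-06). From stage 2 to stage 4 the level of Aa_G590900 in AB changed by -1.43 ± 0.09 on the log2 scale (adjusted p = 3.23e-10).

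Ordered by mean CPM, Aa_G590900 ran from AB stage 1 (94.6 ± 7.45, SD), AB stage 2 (83.1 ± 3.42), SAM stage 2 (77.9 ± 4.73) and SAM stage 1 (74.7 ± 5.03) to AB stage 3 (60.6 ± 7.3), SAM stage 3 (57.4 ± 5.55), SAM stage 4 (57.2 ± 4.09) and AB stage 4 (30.9 ± 1.12). Neighbours did not overlap at the first step, between SAM stage 1 and AB stage 3, and between SAM stage 4 and AB stage 4. In TPM only the lowest group, AB stage 4, was separated from its neighbour.

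Aa_G201460 measured 50.8 and 49.9 CPM in AB stage 1, and 48.3, 51.2 and 42.8 CPM in AB stage 2. It measured 41.1, 45.8 and 62.1 CPM in AB stage 3, and 37.9, 33.3 and 28.9 CPM in AB stage 4. Replicate 3 of AB stage 3 stood above the other AB libraries, and AB stage 4 was below all of them.

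In the SAM, Aa_G201460 measured 53.6, 75.8 and 65.4 CPM at stage 1 and 62.6, 72.5 and 52.7 CPM at stage 2. It measured 54, 57.7 and 63.6 CPM at stage 3, and 62.8, 64.9 and 78.4 CPM at stage 4. The 4 SAM groups overlapped with their neighbours in the order of means and gave no called step, with differences of -0.05 ± 0.15, -0.10 ± 0.15 and 0.23 ± 0.15 (adjusted p = 0.892, 0.667 and 0.375).

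Averaged over the 4 stages, Aa_G201460 was lower in AB than in SAM by 0.51 on the log2 scale (-0.51 ± 0.08, adjusted p = 2.56e-05). By stage, the AB minus SAM difference was -0.37 ± 0.17, -0.40 ± 0.15, -0.23 ± 0.15 and -1.04 ± 0.16 (adjusted p = 0.114, 0.0465, 0.232 and 0.000663). The stage 2 value sat at the threshold. With the replicate number as a block, since same-numbered AB and SAM libraries deviated together at that stage, the Aa_G201460 difference there was -0.40 with an adjusted p of 0.0519, and it was 0.000772 with the block in a fit of these 2 groups alone. The adjusted p was 0.0922, 0.0548 and 0.16 when replicates 1, 2 and 3 of AB stage 2 were left out in turn, and 0.0872 and 0.214 for replicates 1 and 2 of SAM stage 2. At stage 3 the Aa_G201460 difference became -0.43 (adjusted p = 0.0277) without AB stage 3 replicate 3.

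From stage 3 to stage 4, Aa_G201460 fell in AB by 0.57 on the log2 scale (-0.57 ± 0.16, adjusted p = 0.00573), or -0.38 (adjusted p = 0.046) without AB stage 3 replicate 3. The AB change minus the SAM change over that step was -0.81 ± 0.22 (adjusted p = 0.00976). The interaction over all stages passed (adjusted p = 0.0281), but not without AB stage 4 replicate 2 (0.0536) or replicate 3 (0.0912) or SAM stage 4 replicate 3 (0.0897). In AB, Aa_G201460 lay lower at stage 4 than at stage 2 (-0.51 ± 0.16, adjusted p = 0.0114), a call lost without AB stage 4 replicate 3 (-0.41, adjusted p = 0.0602). Its order of mean CPM placed all 4 SAM groups (68.7, 64.9, 62.6 and 58.4 at stages 4, 1, 2 and 3) above all 4 AB groups (50.3, 49.7, 47.4 and 33.4 at stages 1, 3, 2 and 4).

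Other markers moved with the fall of both genes in AB stage 4. Between AB stages 3 and 4 the summed level of 6 vascular markers went from 22.5 to 31.1 TPM to 15.8 to 18.1 TPM, and 2 of the 6 were called lower and 0 higher, a share below the 47.3% of all genes called in that step. Over the same step the 4 boundary markers went from 123 to 160 TPM to 50.9 to 55.8 TPM, with 1 called higher and 1 lower, and LOB, a factor of organ boundaries, went from 81.3 to 125 TPM to 5.84 to 9.99 TPM. Of the other lists in that AB step, 3 of 4 epidermis markers were called higher, 10 of 29 mesophyll markers were called (2 higher and 8 lower, with sums going from 9580 to 12500 TPM to 8540 to 9330 TPM), and of STM and KNAT1 the former was called higher (0.40 ± 0.12), though not without AB stage 3 replicate 1 (0.32, adjusted p = 0.0563). In SAM stages 3 and 4 the vascular sums were 19.6 to 24.3 and 16.0 to 19.8 TPM, and the boundary sums 43.2 to 50.3 and 39.5 to 53.4 TPM. The part of these cells in the 2 receptor-like genes was not tested.

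The third gene of the same description, Aa_G702580, was the most abundant of the 3 and shared the pattern of the others only in part. Its mean level was 52.5, 47.6, 36.2 and 27.2 TPM in AB and 51.7, 65.2, 37.4 and 26.9 TPM in SAM at stages 1 to 4. From stage 2 to stage 3 Aa_G702580 went from 123 to 142 CPM to 93.3 to 113 CPM in AB. In SAM it went from 160 to 208 CPM to 91.8 to 120 CPM, and Aa_G590900 fell in both tissues over that step too. The AB call there was lost without AB stage 2 replicate 3, AB stage 3 replicate 1 or AB stage 3 replicate 2 (adjusted p = 0.12, 0.106 and 0.0667). Aa_G702580 also fell from stage 3 to stage 4 in both tissues, with log2 differences of -0.38 ± 0.11 in AB (adjusted p = 0.00973) and -0.52 ± 0.11 in SAM (adjusted p = 0.00634). The AB call was lost without AB stage 3 replicate 3 (-0.30, adjusted p = 0.0546), and the SAM call for Aa_G702580 in a fit of the compared groups alone (-0.51, adjusted p = 0.0689). At stage 4, where the other 2 were lower in AB, the AB minus SAM difference of Aa_G702580 was 0.01 ± 0.11 (adjusted p = 0.984), and libraries of the tissues overlapped. Among single stages, the AB minus SAM difference of Aa_G702580 was called at stage 2 (-0.48 ± 0.11, adjusted p = 0.00203). Its average over the 4 stages was -0.16 ± 0.06 (adjusted p = 0.0277). That call was lost with total counts in place of TMM, on both TPM scales, and when any of these libraries was left out: replicate 1 of AB stages 1 and 3, replicate 2 of AB stage 4, any replicate of SAM stage 1, replicates 1 and 2 of SAM stage 3, and replicate 3 of SAM stages 2 and 4 (adjusted p = 0.0539 to 0.134).

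**Figure D3:**
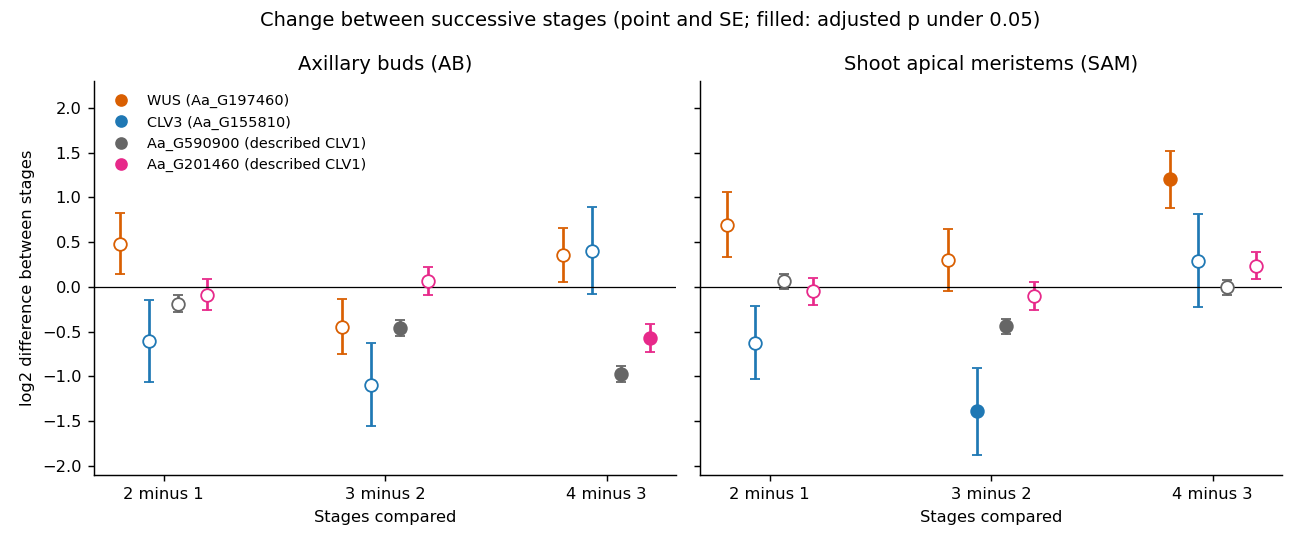
Log2 difference between successive stages (vertical axis) for the 3 steps (horizontal axis) in AB (left) and SAM (right), with the SE of the fit as bars and filled points where the adjusted p was under 0.05. In the last step WUS is called higher in SAM (1.20), while Aa_G590900 (-0.97) and Aa_G201460 (-0.57) are called lower in AB.

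The number of the 4 genes past the threshold was set against the share of all genes tested. For AB minus SAM, 2 of 4 passed at stage 1 (32.8% of all genes tested did), 2 at stage 2 (37.4%), 1 at stage 3 (44.2%) and 2 at stage 4 (3.47%). For the average of the 4 stages 2 passed (52.9%). At stage 4 these were Aa_G590900 and Aa_G201460, and 2.12% of all genes were called lower in AB there. Aa_G702580, also described as CLAVATA1, was not called at stage 4. The 3.47% called in either direction were 743 genes, against 1124 with DESeq2 and 1465 in a fit of the compared groups alone, and 373 to 437 when 1 of 4 libraries was left out (replicates 1 and 2 of AB stage 4, replicates 2 and 3 of SAM stage 4). Libraries of the tissues did not overlap for 3 of the 4 genes at stage 1 (56.8% of all genes), 2 at stage 2 (46.0%), 1 at stage 3 (50.9%) and 3 at stage 4 (26.8%).

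For the steps within AB, 0 of 4 passed from stage 1 to stage 2 (1.16% of all genes), 1 from stage 2 to stage 3 (22.2%), 2 from stage 3 to stage 4 (47.3%) and 2 between stages 2 and 4 (51.1%). Within the SAM the counts were 0 (7.58%), 2 (24.3%), 1 (9.18%) and 2 (33.7%). For both counts of 0, edgeR gave 0 genes at an unadjusted p under 0.05 and DESeq2 also called 0. The AB change differed from the SAM change in the last step for 2 of 4 genes (29.8%), and the interaction over all stages passed for 3 of 4 (34.1%).

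The balance between the factor and the peptide was read within each library as the ratio of WUS to CLV3 in TPM. In AB it was 1.18 and 1.29 at stage 1, and 2.03, 4.27 and 2.45 at stage 2. It was 3.46, 3.46 and 6.92 in AB at stage 3, and 3.23, 5.72 and 3.65 at stage 4. All AB ratios were above 1.

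In the SAM, WUS over CLV3 was 0.456, 0.315 and 0.277 at stage 1 and 1.01, 0.46 and 1.13 at stage 2. It was 3.15, 2.34 and 2.93 at stage 3, and 3.68, 9.53 and 5.49 at stage 4. The ratio was below 1 in all SAM libraries of stage 1 and above 1 in all of stages 3 and 4. AB and SAM ratios did not overlap at stages 1, 2 and 3 and overlapped at stage 4. These ratios carry the counting error of CLV3, whose group sums were 14 to 71 counts.

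The ratio of Aa_G590900 to Aa_G201460 in TPM shifted with stage in both tissues. In AB its group median went from 1.75 at stage 1 and 1.69 at stage 2 to 1.09 at stage 3 and 0.832 at stage 4. In the SAM the medians were 1.09, 1.20, 0.845 and 0.782. AB libraries lay above SAM libraries at stages 1 and 2 and overlapped with them at stages 3 and 4.

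**Figure D4:**
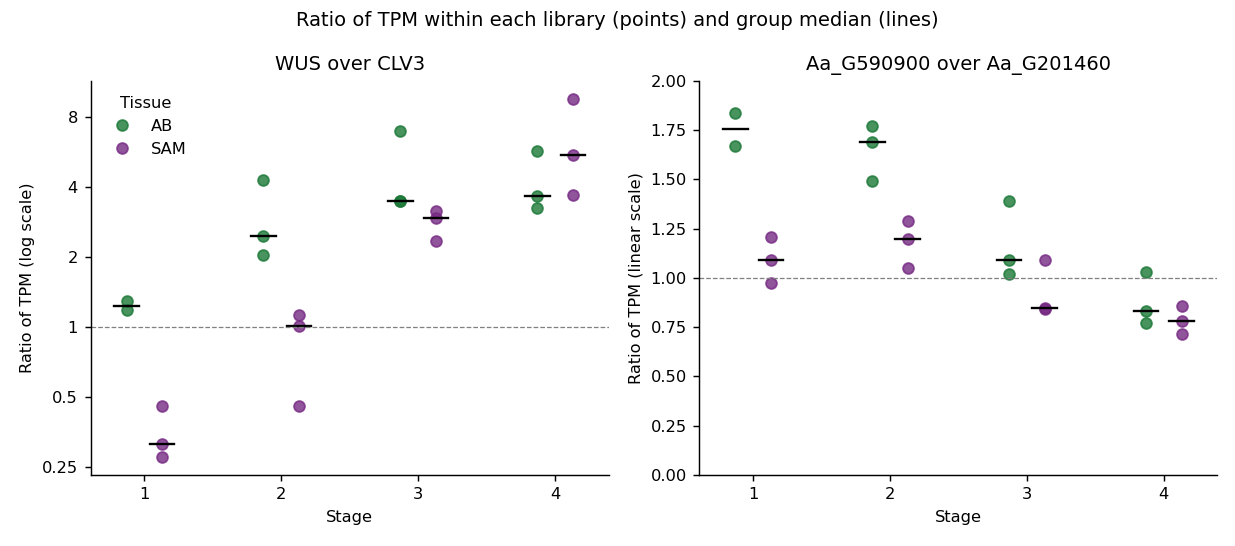
Ratio of TPM within each library (points) and group median (black lines) by stage for AB (green) and SAM (purple), for WUS over CLV3 (left, log scale) and Aa_G590900 over Aa_G201460 (right, linear from 0); the dashed line marks a ratio of 1. The left ratio runs from 0.277 in a SAM stage 1 library to 9.53 in a SAM stage 4 library.

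The wider pathway was described by 51 genes whose deposited descriptions name a part of it or a relative of the same family. They include the 4 genes and Aa_G702580, and 45 of the 51 could be tested. Listing rests on the description alone, not on a shown role in the feedback loop. Aa_G740180 is also on the vascular marker list. At stages 1, 2 and 3 the AB minus SAM comparison called 17, 18 and 22 of the 45 (37.8%, 40.0% and 48.9%), beside the 32.8%, 37.4% and 44.2% of all genes. At stage 4 it called 5 (11.1%, against 3.47% of all genes), of which 0 were higher and 5 lower in AB (2.12% of all genes were lower). The 3 beside Aa_G590900 and Aa_G201460 were CRN (Aa_G19540), a membrane pseudokinase that partners CLV2, at -0.38 ± 0.07, a class III homeodomain factor described as ATHB-15 (Aa_G219750) at -0.43 ± 0.08, and a WUSCHEL-related gene described as homeobox 13-like (Aa_G426430) at -0.58 ± 0.13. Their adjusted p-values were 0.003, 0.00298 and 0.0106. For Aa_G426430 the adjusted p was 0.0558 and 0.0856 when replicate 1 or 2 of AB stage 4 was left out, and 0.0536 when replicate 3 of SAM stage 4 was. The count of 5 was 8 in a fit of the compared groups alone. The median difference over the 45 was between -0.08 and 0.03 at the 4 stages, beside medians of -0.02 to 0.00 over all genes.

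**Figure D5:**
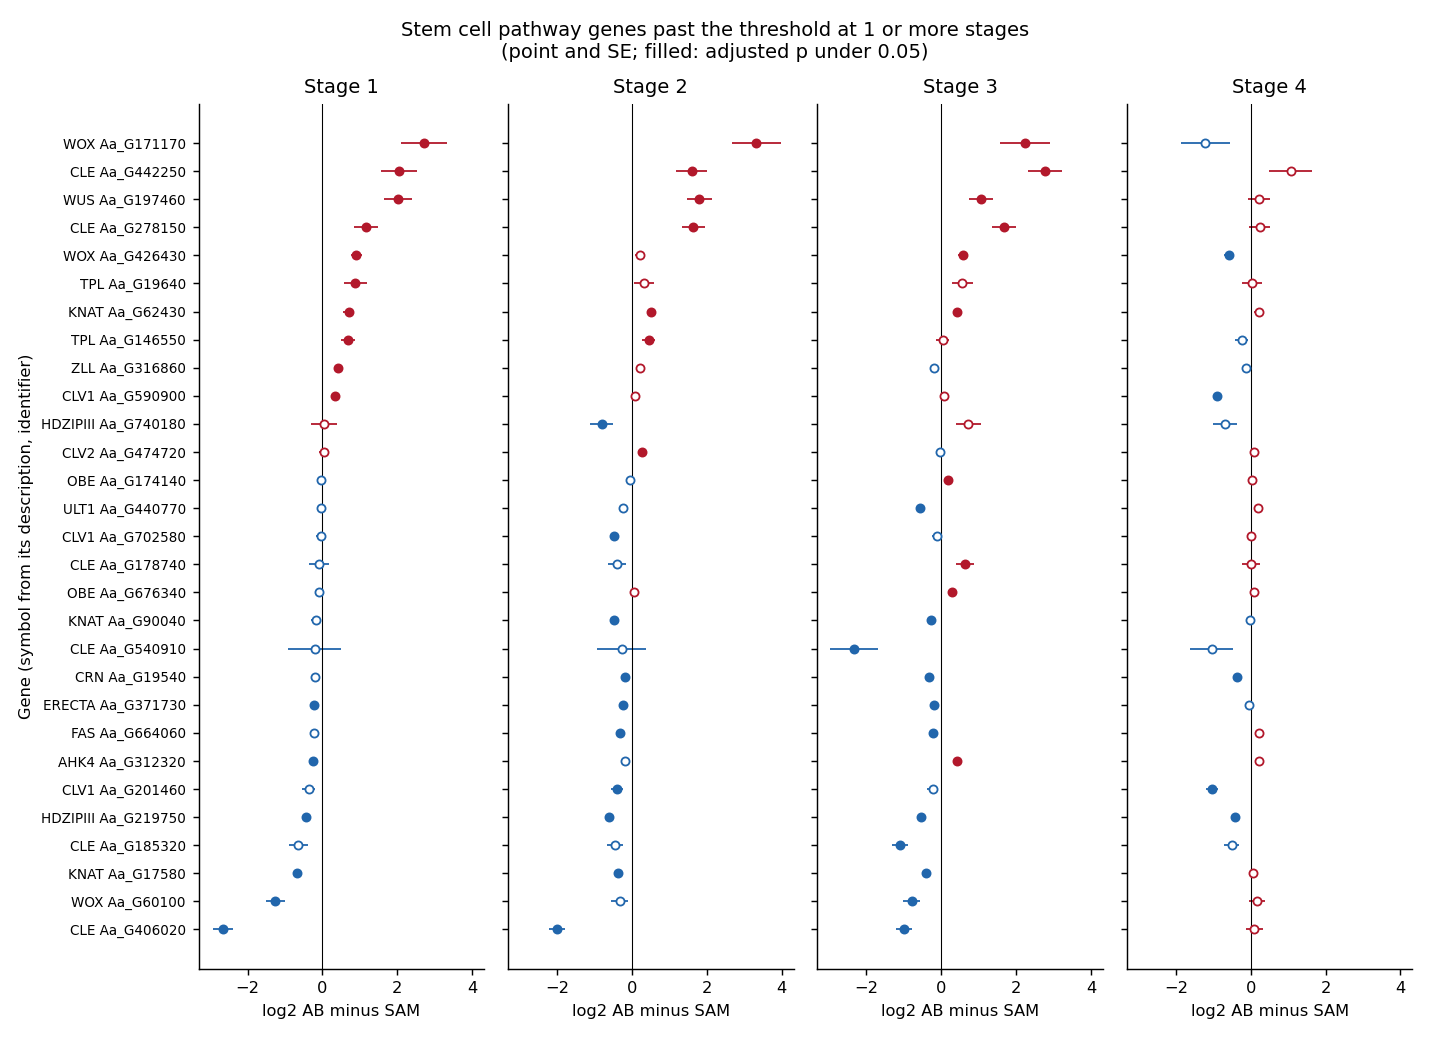
Log2 difference AB minus SAM (horizontal axes) at stages 1 to 4 for the 29 pathway genes drawn of the 30 called at any stage (rows), with the SE as bars and filled points where the adjusted p was under 0.05; 1 gene with 3 counts or fewer in a group was left out. Called differences of more than 1 on the log2 scale belong to WUS, WUSCHEL-related and CLE genes at stages 1 to 3 and to Aa_G201460 at stage 4, and WUS lies to the right at all 4 stages.

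Several peptide and homeobox relatives were higher in buds at stages 1 to 3, as WUS was. Aa_G171170, described as WUSCHEL-related homeobox 4, which in Arabidopsis acts in the vascular cambium, was higher in AB by 2.72 ± 0.62, 3.32 ± 0.66 and 2.23 ± 0.67 at stages 1 to 3 (adjusted p = 0.00183, 0.00041 and 0.0098). The stage 3 value was 1.64 without SAM stage 3 replicate 1 (adjusted p = 0.062) and 1.76 without replicate 2 (adjusted p = 0.051), but 4.58 without replicate 3 (adjusted p = 0.000106). Aa_G442250, described as the CLV3-like peptide CLE43, was higher in AB by 2.04 ± 0.47, 1.60 ± 0.41 and 2.76 ± 0.46, and Aa_G278150, described as CLE17, by 1.17 ± 0.33, 1.65 ± 0.31 and 1.68 ± 0.32. At stage 1 both calls were lost without AB stage 1 replicate 2 (adjusted p = 0.115 and 0.0678). At stage 4 none of these 3 genes passed. Of 6 vascular markers, 3 were called higher in AB at each of stages 1 to 3, and 0, 1 and 1 were called lower. Of all genes, 32.8%, 37.4% and 44.2% were called at these stages. The part of vascular cells in the Aa_G171170 difference was not tested. Aa_G505060, described as ULTRAPETALA1, had 24, 42, 17 and 4 counts in the AB groups and 2, 1, 1 and 0 in the SAM groups, too few for a fold.

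Other relatives were lower in buds. Aa_G406020, described as CLE42, stood at 17.1 ± 3.0, 18.0 ± 1.9, 10.2 ± 2.63 and 5.15 ± 0.593 CPM (SD) in the SAM and at 2.71 ± 0.642, 4.52 ± 1.47, 5.07 ± 0.586 and 5.50 ± 0.976 CPM in AB. The AB minus SAM difference for Aa_G406020 was -2.66 ± 0.27, -1.99 ± 0.21 and -1.01 ± 0.21 at stages 1 to 3, and 0.10 at stage 4. At stage 4 the libraries of the tissues overlapped for Aa_G406020. Aa_G60100, described as WUSCHEL-related homeobox 3B, was lower in AB at stages 1 and 3 (-1.25 ± 0.25 and -0.79 ± 0.22). At stage 3, CLE genes described as 45 (Aa_G540910, -2.33 ± 0.63) and 25-like (Aa_G185320, -1.11 ± 0.21) were lower in AB. The Aa_G540910 value rests on 8 counts in AB and 41 in SAM, so its size is imprecise. A TDIF-like CLE gene (Aa_G178740) was higher in AB at 0.64 ± 0.24, a call lost without AB stage 3 replicate 3 (adjusted p = 0.21) or SAM stage 3 replicate 1 (0.134).

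Transcription factors of the meristem and their partners differed by smaller amounts. ATHB-15 was lower in AB at all 4 stages, by -0.44, -0.60, -0.54 and -0.43. Aa_G62430, described as KNAT6, was higher in AB at stages 1 and 2 (0.70 ± 0.14 and 0.52 ± 0.12). At stage 3 Aa_G62430 lay at 51.2 to 59.7 CPM in AB and 36.5 to 48.7 CPM in SAM. Aa_G17580, of the same description, was lower in AB at stages 1 to 3 (-0.69 ± 0.10, -0.38 ± 0.09 and -0.41 ± 0.09, adjusted p = 2.33e-05, 0.00208 and 0.00124). KNAT1 (Aa_G90040) was lower in AB at stage 2 (-0.48 ± 0.11), and it was called lower at stage 3 too (means of 147 CPM in AB and 178 CPM in SAM). STM, which keeps meristem cells undifferentiated, was not called at any stage (-0.29, -0.28, -0.28 and -0.23, adjusted p = 0.0912, 0.0616, 0.0552 and 0.32). Averaged over the 4 stages both were called lower in AB, STM (Aa_G408930) at -0.27 ± 0.06 (adjusted p = 0.000658) and KNAT1 at -0.24 ± 0.05 (adjusted p = 0.00102). Aa_G426430 was higher in AB at stage 1 (0.91 ± 0.14), and at stage 3 it lay at 17.9 to 21.6 CPM in AB and 12.3 to 15.2 CPM in SAM. The TOPLESS-related genes Aa_G19640 and Aa_G146550, co-repressors of WUS in Arabidopsis as a family, were higher in AB at stage 1 (0.88 and 0.69), and both calls were lost without AB stage 1 replicate 2 (adjusted p = 0.253 and 0.102). For Aa_G19640 it was 0.0893 without SAM stage 1 replicate 1 and 0.0797 without replicate 2. Aa_G440770, a second gene described as ULTRAPETALA1, was lower in AB at stage 3 (-0.57 ± 0.10). Aa_G740180, described as class III HD-ZIP 8, was called lower at stage 2 (-0.81 ± 0.32, adjusted p = 0.0492), at the threshold, and leaving out any of 5 of the 6 libraries lost it (adjusted p = 0.0624 to 0.168).

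Over stages, the list stood beside the background as follows. From stage 2 to stage 3 in the SAM, the step in which CLV3 and Aa_G590900 fell, 19 of 45 genes were called (42.2% against 24.3% of all genes), 2 higher and 17 lower, with a median of -0.25 against 0.00 over all genes. Without SAM stage 3 replicate 3 the count was 11 of the 45, a share close to the 24.3% of all genes called with every library. The share of all genes in that smaller fit is not given, so the excess of the list was not shown to hold there. In AB the same step called 9 of 45 (22.2% of all genes were), 1 higher and 8 lower, with a median of -0.15 against -0.02. In the last step, 21 of 45 were called in AB (46.7%, against 47.3% of all genes) and 7 in the SAM (15.6%, against 9.18%). Between stages 1 and 2 the counts were 0 in AB (10 at an unadjusted p under 0.05 with edgeR, 0 with DESeq2) and 4 in the SAM, where 1.16% and 7.58% of all genes were called.

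The genes with the most similar profile were taken by Pearson's r of mean log2 CPM over the 8 groups, among genes with a mean of at least 1 CPM. For WUS they were a YIP1 family membrane protein (Aa_G38100, r = 0.99), a 2-oxoglutarate and iron dependent oxygenase-like gene (Aa_G359780, 0.984), a probable carboxylesterase 18-like gene (Aa_G143270, 0.982), a SHI-related sequence 7 gene (Aa_G533870, 0.98) and an ERD6-like 6 sugar transporter (Aa_G323720, 0.974). For CLV3 the first was a reticulon-like B10 gene (Aa_G284860, 0.988), followed by Aa_G186970, Aa_G239560, Aa_G666620 and an LSD-one-like 1 gene (Aa_G16480) at 0.98 to 0.97. For Aa_G590900 they were a type I inositol trisphosphate 5-phosphatase 1 (Aa_G397310, 0.973), Aa_G977230, Aa_G451760, Aa_G474680 and Aa_G710820, the last at 0.946. Aa_G201460 had a heat shock like gene (Aa_G289470, 0.974) first, then Aa_G362190, a Q-like 3 DNA helicase (Aa_G157000), Aa_G216080_1 and Aa_G34000 at 0.919 to 0.912. Over the same 8 group means, r between the members was -0.20 for WUS and CLV3, -0.29 and -0.60 for WUS with Aa_G590900 and Aa_G201460, and 0.56 between the last 2. CLV3 gave 0.58 with Aa_G590900 and -0.05 with Aa_G201460. The groups share libraries and scaling across genes, and with 8 points these values only describe.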

How the data were processed

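The members and gene lists were chosen with earlier results of these data known. RNA from 23 libraries was sequenced as single-end reads of 150 bp, per the labels. The deposited table gives the count of mapped reads per gene and library and TPM values, both made by the authors. The log2 fold changes and FDR p-values of 4 comparisons are quoted as deposited by the authors. The implied lengths behind TPM equalled the coding length within 2% for 100% of 19593 genes that could be compared. The submitters' processing notes name FastQC. Neither aligner nor counter nor strandedness is stated (not given in the sources used here). Gene models are deposited coordinates on the version 5 assembly, placed there by aligning proteins of the version 4 annotation, per the file headers. A further 46 columns of values by library were not used, and no genome sequence was used here.

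Counts were tested with edgeR 4.0.16 (R 4.3.3): filterByExpr by group (minimum count 10, minimum total 15; 21414 genes kept), TMM scaling, 1 coefficient for each of 8 groups over all 23 libraries, robust quasi-likelihood F tests and Benjamini-Hochberg adjustment over all genes tested, threshold 0.05. CPM are TMM-scaled; the SE comes from the difference and its F statistic. P-values measure the spread between these pooled replicates. No pair of replicate libraries agreed within sampling noise. On simulated counts for AB minus SAM at stage 2, run on 21414 genes, 96 of 100 genes changed 2-fold and 100 of 100 changed 4-fold were called, with 9 of 21214 unchanged genes. The changed genes were drawn only from genes above a floor of expected counts. CLV3 lay below that floor, as did the mean WUS level in SAM stages 1 to 3, so these rates do not cover them.

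Replicate numbers come from the titles. Deviations of same-numbered AB and SAM libraries correlated at 0.39 to 0.45 at stage 2 and at 0.30 at stage 3 over 3 pairs, so the numbers were taken to pair libraries there; at stages 1 and 4 the lowest values were -0.05 and -0.06, and between stages of a tissue the lowest were -0.25 to 0.05. Alternatives were DESeq2 1.42.0, other scalings and filters, limma 3.58.1 on log2(TPM + 1) and log2(TPM + 0.1), fits of the compared groups alone, the replicate block and leaving out each replicate; the block in the compared groups alone was added after the data were seen. The text names the 4 genes, pathway list genes past the threshold for AB minus SAM (at most 10 a comparison, largest first) with those a sentence counts, and the 5 genes most like each member. STM and Aa_G17580 were named after their values were seen. Marker lists of other cell types were read as sums of TPM.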

Additional observations from a re-analysis of the deposited data

Results flagged for a closer look

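For 3 of the 4 genes the difference between buds and apex changed with stage, by a test of the change itself, which 34.1% of all genes tested passed. For Aa_G590900 the AB change minus the SAM change from stage 3 to stage 4 was -0.9655 on the log2 scale, and the interaction of tissue and stage had an adjusted p of 3.159e-06. For Aa_G201460 the same values were -0.8062 and 0.02806, and the latter was 0.0536, 0.0912 and 0.0897 without AB stage 4 replicate 2, AB stage 4 replicate 3 and SAM stage 4 replicate 3. For WUS the interaction had an adjusted p of 0.01516. In AB over the last step, 2 of 6 vascular markers were called lower and 0 higher. Of 4 boundary markers, 1 was called higher and 1 lower in that step, which called 47.3% of all genes. Flower meristem markers moved over the same step in both tissues. Of the 4 tested, 4 were called higher in the SAM, where 9.18% of all genes were called, and 2 were called higher in AB. The part of these cells in these results was not tested. Groups of 2 or 3 libraries are too small for a test of single outlying libraries.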

How the results depend on the processing

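The 60 results on the 4 genes had 1137 alternative values. Of these, 1077 kept direction and side of the threshold, 25 lost a call, 10 gained one and 25 changed sign, 0 of the last among called results; 16 of 24 called results kept their call in every alternative. Unless named otherwise, the cause was not tested.

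With log2(TPM + 1) or log2(TPM + 0.1), Aa_G201460 at stage 2 was -0.35 or -0.37 and lost its call. CLV3 then passed for AB stage 3 minus 2 (-0.77, first scale) and for SAM stage 4 minus 2 (-0.77 and -1.13). With DESeq2 the CLV3 difference for SAM stage 3 minus 2 was -1.43 and not called. The near-zero Aa_G590900 difference for SAM stage 4 minus 3 turned positive with DESeq2 (0.0034), upper quartile scaling (0.0077), no filter (0.013), a CPM filter (0.010), both TPM scales (0.029 and 0.031) and the compared groups alone (0.0001). Aa_G702580 at stage 1 was 0.023 on both TPM scales.

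With the replicate number as a block, Aa_G201460 at stage 2, where the numbers pair libraries, was -0.40 and no longer called (adjusted p = 0.0519). Where they do not pair, CLV3 for SAM stage 3 minus 2 was -1.39 and not called. With the block in the compared groups alone, added after the data were seen, Aa_G201460 was called at stage 1 (-0.31), lost its AB stage 4 minus 3 call (-0.56), and Aa_G590900 for SAM stage 4 minus 3 was 0.0016. The block changed no other call on the 4 genes where they were tested. In several of the fits of the compared groups alone, that of SAM stage 3 minus 2 included, CLV3 did not pass the count filter and was not tested.

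Leaving out 1 library at a time gave these ranges for AB minus SAM: Aa_G590900 0.27 to 0.41 (stage 1), -0.0107 to 0.16 (stage 3) and -0.12 to -0.0692 (mean of stages); Aa_G201460 -0.51 to -0.27 (stage 2) and -0.43 to -0.10 (stage 3); CLV3 -0.0927 to 0.47 (stage 2); WUS 0.76 to 1.57 (stage 3); among values not called, CLV3 0.085 to 0.45, 0.14 to 0.89 and 0.35 to 0.96 (stages 1, 3 and 4) and Aa_G201460 -0.47 to -0.22 (stage 1); Aa_G702580 -0.067 to 0.13 (stage 4). For steps they were, in AB, -0.13 to 0.20 (Aa_G201460, 3 minus 2), -0.61 to -0.41 (Aa_G201460, 4 minus 2) and -0.17 to 0.0111 (WUS, 4 minus 2). In the SAM they were -0.16 to 0.0845 and -0.21 to 0.0138 (Aa_G201460, 2 minus 1 and 3 minus 2), -0.18 to 0.97 and 0.90 to 1.68 (WUS, 3 minus 2 and 4 minus 3), -1.76 to -1.04, -0.062 to 0.67 and -1.45 to -0.83 (CLV3, 3 minus 2, 4 minus 3 and 4 minus 2) and -0.0655 to 0.0675 (Aa_G590900, 4 minus 3). The AB change minus the SAM change from stage 3 to 4 ran from -1.35 to -0.54 for WUS and from -0.29 to 0.47 for CLV3, and the interaction p of Aa_G201460 from 0.0135 to 0.0912.

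Counts of calls over all genes moved by over 1.5 times at stage 4 (743; 2317 with the added block fit) and for AB stage 2 minus 1 (249; 399 with DESeq2, 407 with log2(TPM + 1), 140 in the compared groups alone, 29 and 57 without AB stage 1 replicate 1 or AB stage 2 replicate 1). AB stage 3 minus 2 called 4764, and 2765 in the compared groups alone. Without 1 library, AB minus SAM at stage 1 called 4347 in place of 7016 (without AB stage 1 replicate 2), SAM stage 2 minus 1 as few as 554 of 1623 and SAM stage 4 minus 3 as few as 1052 of 1965 (without replicate 1 of SAM stage 1 and of SAM stage 3). The 4 list genes called for SAM stage 2 minus 1 were 2 with no filter, and 2 without SAM stage 1 replicate 1 or 2 or SAM stage 2 replicate 1. CLV3 rests on 3 to 31 counts per library.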
